A study of Mus musculus with 6 samples.

Results

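The COMMD family comprises the 10 genes Commd1 to Commd10, which encode small proteins that share a carboxy-terminal COMM domain. The members were taken by gene name from a table of 78298 genes, in which each name matched 1 row. RNA with poly(A) tails was sequenced from mouse embryonic stem cells (ESCs), which stand for the naive epiblast in culture, and from epiblast-like cells (EpiLCs), which resemble the epiblast after implantation. Both groups are wild type and come from BVSC clone H18, so they represent 1 cell line, with 3 libraries each. The labels give no culture media, no time in differentiation and no treatment. Values are TPM (a gene's length-scaled share of its library, in transcripts per 1000000). The labels describe biological replicates but not how the cultures were kept apart, so the p-values below measure the spread between these libraries, which may be technical. The family was chosen by its differences in TPM between ESCs and EpiLCs in these same libraries. Its levels and differences are therefore given as a description and were not tested. The lists of partner, cargo and marker genes were also chosen with earlier results of these data known. Their p-values come from the same contrast and are no independent support.

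COMMD proteins assemble into a ring that joins the coiled-coil proteins Ccdc22 and Ccdc93 and the protein Dennd10 in the CCC assembly. The CCC assembly binds Retriever, a relative of the retromer built from Vps35l, Vps26c and Vps29, and the whole is the Commander complex. Commander returns membrane proteins such as integrins from endosomes to the cell surface, with the sorting nexin Snx17 as cargo adaptor. Its endosomal partner is the WASH complex, which promotes actin nucleation. In human cells, loss of 1 COMMD protein commonly lowers the amounts of the others. Several COMMD proteins are also known to restrain NF-kappaB signalling, and COMMD1 takes part in copper export.

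Of the 10 genes, 7 were lower in EpiLCs, Commd5 was higher, and Commd7 and Commd9 overlapped between states. The summed level of the family was 578, 581 and 556 TPM in the ESC libraries and 436, 431 and 421 TPM in the EpiLC libraries. Every ESC library thus lay above every EpiLC library, and the EpiLC mean of 429 ± 7.73 TPM (SD, n = 3) was 75.0% of the ESC mean of 572 ± 13.8 TPM (SD, n = 3). In bulk samples such as these, fewer cells expressing a gene and less RNA per cell cannot be told apart. All 10 members passed the filter on low values (a mean of at least 1 TPM over the 6 libraries), and no library had a member below 8.48 TPM. The libraries of the groups did not overlap for 8 members, 7 lower and 1 higher, beside 71.5% of all 14036 genes tested (33.1% lower and 38.4% higher). In the fit across all 14036 genes tested (limma on log2(TPM + 1), Benjamini-Hochberg adjusted p under 0.05), 7 members were on the lower side and 1 on the higher side. Of all tested genes, 66.9% were called, 30.9% lower and 36.1% higher. Since the same contrast served to choose the family, nothing is read from these counts. The median difference of the members was -0.40 on the log2(TPM + 1) scale, beside 0.037 for all tested genes. No member reached a difference of 1 on that scale in either direction, a size found for 19.6% of tested genes. The scale shrinks differences of genes at low TPM, so 19.6% is not the share with a 2-fold ratio of TPM.

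**Figure D1:**
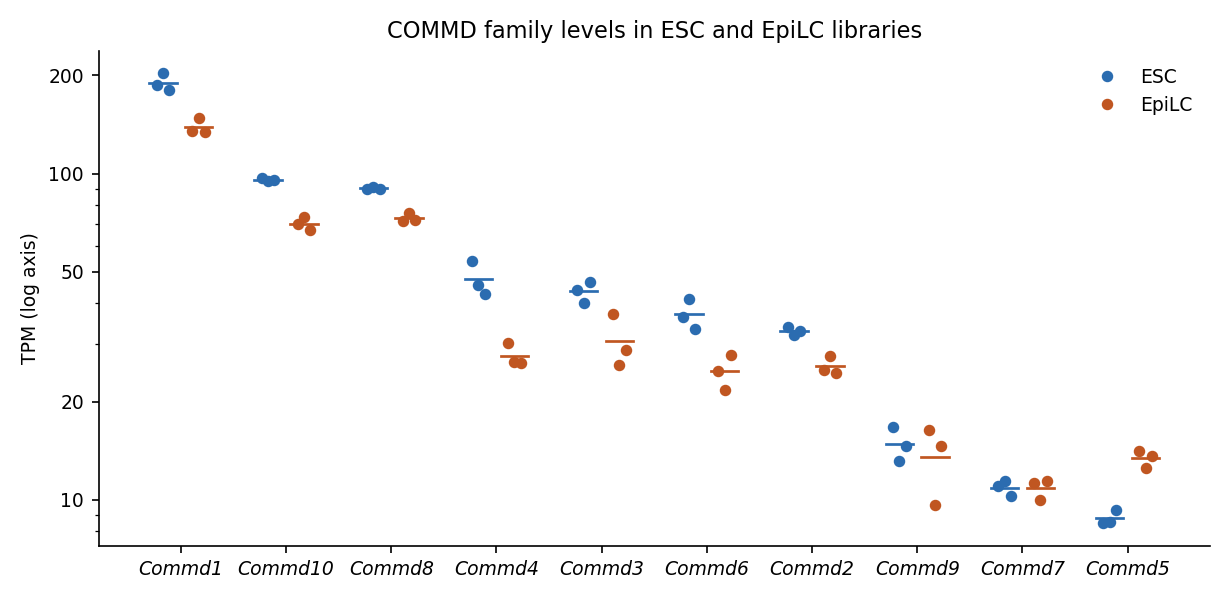
TPM of each COMMD gene on a log axis, ordered by ESC mean, with 1 point per library (3 ESC, 3 EpiLC) and a line at each group mean. Commd1 was the most abundant member in all 6 libraries, and Commd5 was the member whose EpiLC points all lay above its ESC points.

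Levels spanned a wide range within the family. Commd1 was the most abundant member in each library, and its ESC mean was 21.6 times that of Commd5, the lowest ESC member. In ESCs, Commd10 and Commd8 came next in that order, with no overlap between the libraries of these genes. Commd4, Commd3, Commd6 and Commd2 formed a middle tier in which each gene overlapped the next one in order. Commd9, Commd7 and Commd5 were the least abundant and did not overlap each other in ESCs. In EpiLCs, Commd8 and Commd10 overlapped, as did Commd9 and Commd5, and Commd7 had the lowest mean, with that of Commd1 12.8 times as high. Commd9 lay below Commd7 in EpiLC replicate 2, at 9.66 against 9.99 TPM, so these genes also overlapped.

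For 7 members, RefSeq promoter windows were at hand (build GRCm38.p6, 250 bases before to 50 bases after the start site). In 5 of them an E-box or an ETS match lay within 30 bases of the start. That limit served only to choose the runs shown. Its share over all windows was not counted, so nothing is read from the 5. Matches to other motifs searched (SP/KLF in Commd1 and Commd6, YY1 in Commd9) also lay that close. For Commd1 RefSeq gives a second start within the gene, and its upstream start is the 1 used here, so that each of the 7 members counts once. These 5 are shown because the motif lies close to the start in each. The runs cover 110 bases before the start and the first 10 bases from it. Capitals mark every match, whole or cut by the end of the run, to the motifs that were searched on both strands (E-box, ETS, SP/KLF, NRF1 core, CREB/ATF core, YY1 and TATA).
Commd3 (chr2:18672325-18672444, plus strand): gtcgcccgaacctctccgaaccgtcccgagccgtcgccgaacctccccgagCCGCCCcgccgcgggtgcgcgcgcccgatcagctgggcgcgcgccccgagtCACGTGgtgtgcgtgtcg
Commd8 (chr5:72168180-72168299, minus strand): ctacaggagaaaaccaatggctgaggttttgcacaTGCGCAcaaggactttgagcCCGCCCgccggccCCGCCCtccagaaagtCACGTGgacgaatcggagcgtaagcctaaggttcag
Commd9 (chr2:101886152-101886271, plus strand): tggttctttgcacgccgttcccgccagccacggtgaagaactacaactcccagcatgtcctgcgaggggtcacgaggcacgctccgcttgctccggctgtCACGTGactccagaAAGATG
Commd4 (chr9:57158290-57158409, minus strand): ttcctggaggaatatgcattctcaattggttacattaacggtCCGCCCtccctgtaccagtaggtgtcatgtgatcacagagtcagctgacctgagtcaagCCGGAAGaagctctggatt
Commd6 (chr14:101640462-101640581, minus strand): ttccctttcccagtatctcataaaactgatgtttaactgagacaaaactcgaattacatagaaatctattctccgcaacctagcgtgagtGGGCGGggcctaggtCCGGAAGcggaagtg

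The E-box, searched as CACGTG, was found in the windows of 3 of the 7 members, Commd3, Commd8 and Commd9. The E-box occurred in 10.1% of the 12547 windows of tested genes and in 7.15% of all 32851 windows. Counting the start site as base 0, it began at base -8 in Commd3, at base -10 in Commd9 and at bases -26 and 16 in Commd8. The ETS motif, with the letters CCGGAAG, was found in the windows of Commd4 and Commd6, against 17.6% of windows of tested genes, and began at bases -9 and -5. SP/KLF matches (GGGCGG) occurred in the windows of 5 of the 7 members and in 63.1% of windows of tested genes. The NRF1 core (TGCGCA) was found in 3, those of Commd1, Commd6 and Commd8, against 13.9%. The window at the second Commd1 start held the NRF1 core and none of the other motifs. The TATA motif (TATAAA) occurred in the windows of Commd1 and Commd7, beginning at bases -96 and -93, and in 6.90% of windows of tested genes, and the CREB/ATF core (TGACGT) occurred in none of the 7, against 11.3%. The YY1 motif (AAGATGG) was found in the windows of Commd4 and Commd9, against 7.11%. The Commd3 window held 51 CpG, and the others held from 7 in Commd4 to 18 in Commd1. The median was 20 in windows of tested genes, so all but Commd3 lay below it. The E-box windows belonged to Commd3 and Commd8, which were lower in EpiLCs, and to Commd9, which overlapped between states. These matches are descriptions of letters in a window and say nothing about binding.

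**Figure D2:**
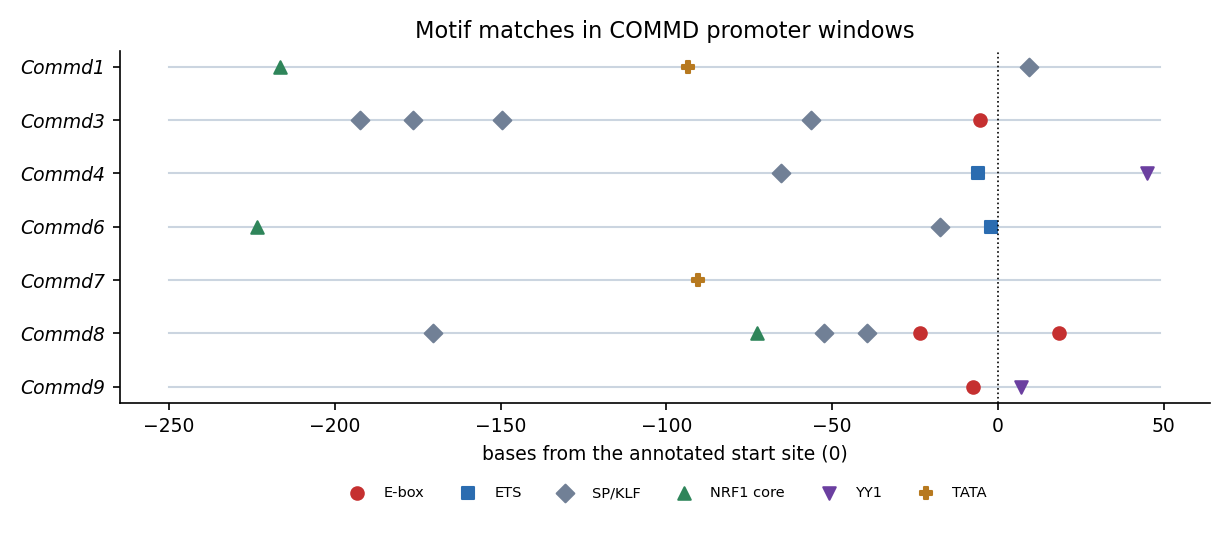
Positions of motif matches in the promoter windows of 7 COMMD genes, in bases from the annotated start site at 0. Each marker is 1 match at its midpoint, and grey lines span each window. The E-box matches of Commd3 and Commd9 and the ETS match of Commd4 lie within 10 bases before the start, and the ETS match of Commd6 spans the start.

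Commd1 (ENSMUSG00000051355), the founding member, is known for copper toxicosis in dogs that lack it and for promoting the removal of the NF-kappaB subunit RelA. It was at 186, 203 and 181 TPM in ESCs and at 135, 148 and 135 TPM in EpiLCs. The lowest ESC library exceeded the highest EpiLC library by 32.8 TPM, and the difference was -0.45 on the log2(TPM + 1) scale (SE 0.06). In the GENCODE M21 annotation (GRCm38) Commd1 lies on chromosome 11 and shares 294 exonic bases with a gene on the same strand that the table lists as Commd1b (Gm28048 in GENCODE M21). A second overlapping gene, Zrsr2-ps1 (Zrsr1 in GENCODE M21), lies on the opposite strand inside Commd1 and shares 412 exonic bases with it. Commd1b was at 9.57, 7.89 and 8.29 TPM in ESCs and at 6.87, 6.10 and 5.14 TPM in EpiLCs, and Zrsr2-ps1 was at 14.8 ± 0.977 and 11.5 ± 0.349 TPM (SD, n = 3 each). Both were lower in EpiLCs, as Commd1 was. How reads were divided among these genes, and whether strand was used, is not stated, so the 3 levels are not independent of each other.

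Commd6 (ENSMUSG00000075486, chromosome 14) encodes the smallest member, which consists of little more than the COMM domain, and in human cells its protein binds COMMD1. It was at 36.4, 41.3 and 33.5 TPM in ESCs and at 24.9, 21.7 and 27.7 TPM in EpiLCs. The groups did not overlap, although the libraries varied more, relative to their mean, than those of Commd1 (coefficient of variation 10.7% against 6.14% in ESCs), and the log2 difference was -0.57 (SE 0.11). Commd4 (ENSMUSG00000032299, chromosome 9) had the lowest log2 difference of the family. It was at 53.9, 45.6 and 42.8 TPM in ESCs and at 30.4, 26.4 and 26.3 TPM in EpiLCs. The lowest ESC library exceeded the highest EpiLC library by 12.5 TPM, and the log2 difference was -0.75 (SE 0.10).

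Commd8 (ENSMUSG00000029213, chromosome 5) and Commd3 (ENSMUSG00000051154, chromosome 2) encode proteins that act together in mouse B cells, where they recruit a kinase to chemoattractant receptors. Commd8 was at 90.0, 90.9 and 89.5 TPM in ESCs and at 71.4, 76.0 and 71.9 TPM in EpiLCs. Its ESC libraries had the lowest coefficient of variation of any member, 0.747%, and the log2 difference was -0.30 (SE 0.05), the smallest among the 7 members that were lower. Commd3 was at 43.9, 40.2 and 46.5 TPM in ESCs and at 37.2, 25.9 and 28.7 TPM in EpiLCs. EpiLC replicate 1 lay 3.04 TPM below the lowest ESC library and well above the other EpiLC libraries, and the log2 difference of Commd3 was -0.51 (SE 0.13). Commd2 (ENSMUSG00000036513, chromosome 3) was at 33.9, 32.1 and 33.0 TPM in ESCs and at 25.0, 27.5 and 24.5 TPM in EpiLCs. Its groups were separated by 4.60 TPM, and its log2 difference was -0.35 (SE 0.07). A stretch of 374 bases of Commd2 has a near-identical copy in the pseudogene Gm8216.

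The proteins of the remaining members, COMMD5, COMMD7, COMMD9 and COMMD10, form a subassembly when human proteins are made together. Of these 4 mouse genes, Commd10 was lower in EpiLCs, Commd5 was higher, and Commd7 and Commd9 overlapped between states. Commd10 (ENSMUSG00000042705) was at 97.3, 94.7 and 95.6 TPM in ESCs and at 70.2, 73.5 and 67.2 TPM in EpiLCs, with groups 21.3 TPM apart and a log2 difference of -0.44 (SE 0.05). Commd5 (ENSMUSG00000055041, chromosome 15), also known as Hcarg and described in rat as a calcium-regulated gene linked to hypertension, was at 8.48, 8.57 and 9.32 TPM in ESCs and at 14.1, 12.6 and 13.6 TPM in EpiLCs. All EpiLC values of Commd5 lay above all ESC values, and the log2 difference was 0.56 (SE 0.08). GENCODE M21 places another gene, Gm49527, over 66.8% of the exonic bases of Commd5 on the same strand, and the table lists that gene at no more than 0.452 TPM in any library.

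Commd7 (ENSMUSG00000056941, chromosome 2), which like Commd1 is known to limit NF-kappaB activity in human cells, was at 11.0, 11.4 and 10.3 TPM in ESCs and at 11.2, 9.99 and 11.4 TPM in EpiLCs. The groups overlapped almost fully, and the log2 difference was -0.0036 (SE 0.09). Transcripts of Commd7 share stretches of 100 to 108 bases at 95% identity or more with those of 56 other genes. A part of its reads could be assigned elsewhere, and reads of those genes, some of them more abundant, could be assigned to Commd7. Neither was tested. Commd9 (ENSMUSG00000027163, chromosome 2), linked to Notch receptor recycling in mouse and human cells, was at 16.7, 13.1 and 14.6 TPM in ESCs and at 16.4, 9.66 and 14.6 TPM in EpiLCs. The replicate 2 library was the lowest of its group in both states, and the log2 difference was -0.14 (SE 0.18).

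The shares that the members took of the family sum differed by little for the most abundant genes and by more for some of the others. Commd1 made up 33.2 ± 1.49% of the family's summed TPM in ESCs and 32.4 ± 1.71% in EpiLCs (SD, n = 3 each). For Commd10 the shares were 16.8 ± 0.450% and 16.4 ± 0.581%, and for Commd8 they were 15.8 ± 0.295% and 17.0 ± 0.619%. The share of Commd5 went from 1.54 ± 0.119% in ESCs to 3.13 ± 0.189% in EpiLCs, and that of Commd7 from 1.91 ± 0.0618% to 2.54 ± 0.202%. Commd4 moved the other way, from 8.29 ± 0.897% to 6.45 ± 0.454%. Shares sum to the whole in each library, so a lower share of one member raises those of the others.

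**Figure D3:**
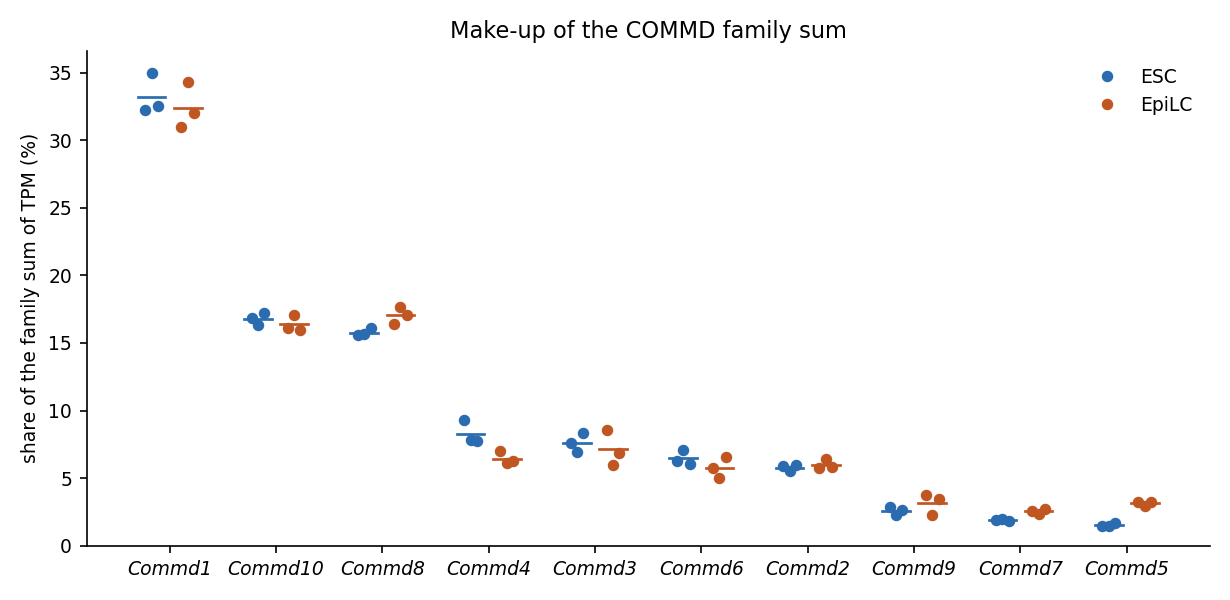
Share of each COMMD gene in the family's summed TPM, in percent, with 1 point per library (3 ESC, 3 EpiLC) and a line at each group mean. The share of Commd1 overlapped between states at 33.2 and 32.4%, while the mean share of Commd5 was 1.54% in ESCs and 3.13% in EpiLCs.

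Of the 6 Commander subunits outside the COMMD family, 4 were called lower, none higher and 2 did not pass the test. Across all tested genes 66.9% were called, 30.9% lower and 36.1% higher. The median log2 difference of the 6 was -0.65, beside 0.037 for all tested genes. Since this list was also chosen with earlier results known, nothing is read from the counts. Ccdc93, which links the COMMD ring to Retriever, was at 19.0, 16.9 and 19.5 TPM in ESCs and at 6.57, 6.77 and 7.11 TPM in EpiLCs. It fell by 1.31 on the log2 scale (SE 0.09, limma adjusted p = 7.8e-06), and each EpiLC library held less than any ESC library. Vps35l, the large scaffold of Retriever, was at 68.5, 70.9 and 63.7 TPM in ESCs and at 31.3, 26.7 and 27.8 TPM in EpiLCs. It fell by 1.22 (SE 0.08, limma adjusted p = 6.1e-06), with no overlap between groups. Both of these differences were larger than that of any COMMD gene, and the difference between subunits was not tested.

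The other CCC and Retriever genes differed less. Dennd10 fell from 36.4 ± 2.15 to 20.9 ± 1.77 TPM (log2 difference -0.77, SE 0.08, limma adjusted p = 8.2e-05). Vps26c, the arrestin-fold subunit of Retriever, fell from 34.8 ± 0.840 to 23.8 ± 0.625 TPM (log2 difference -0.53, SE 0.06, limma adjusted p = 1.1e-04). Ccdc22, the partner of Ccdc93, was at 10.1, 7.62 and 8.32 TPM in ESCs and at 9.71, 7.92 and 8.89 TPM in EpiLCs and did not pass the test (limma adjusted p = 0.865). Vps29, which serves both Retriever and retromer, averaged 112.7 ± 4.82 TPM in ESCs and 117 ± 3.94 TPM in EpiLCs and also missed the threshold (limma adjusted p = 0.373). Within the CCC assembly and within Retriever, called and uncalled subunits thus stood side by side.

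**Figure D4:**
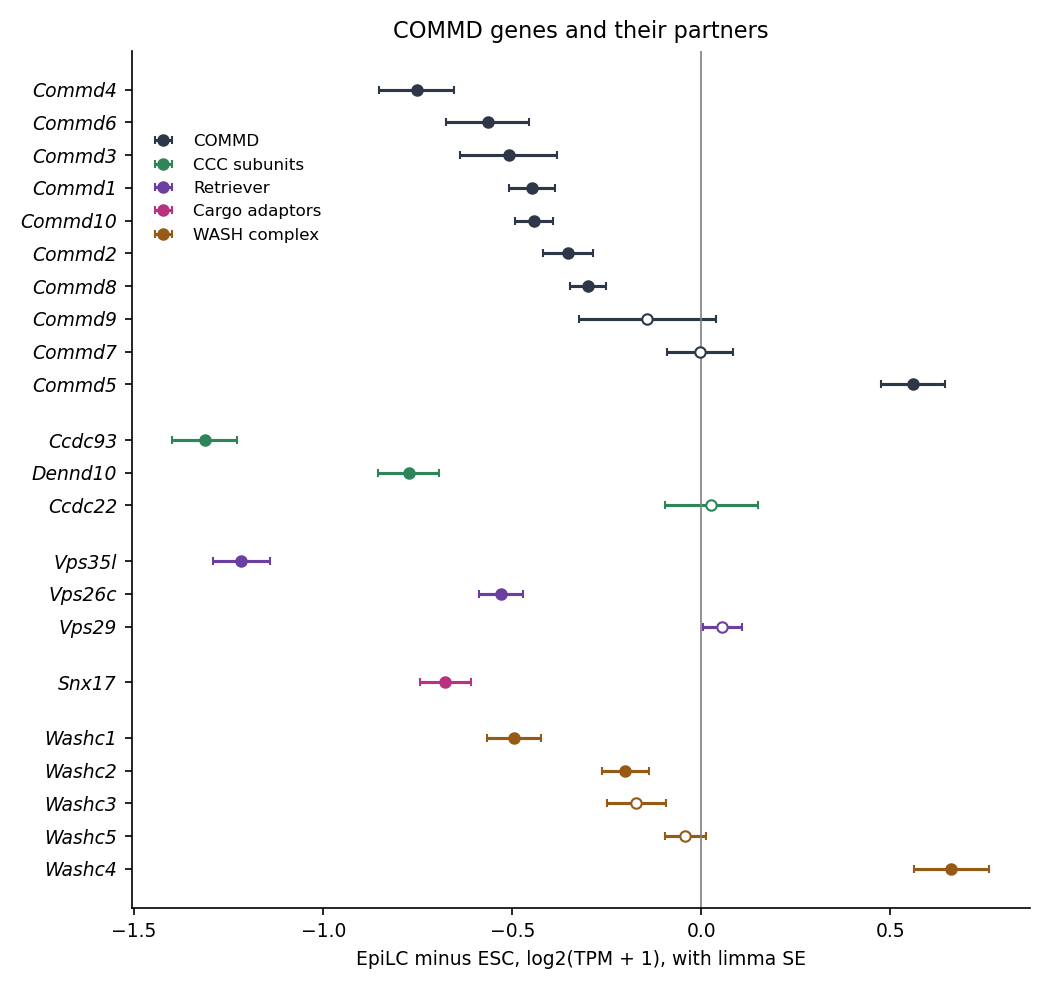
EpiLC minus ESC difference on the log2(TPM + 1) scale for COMMD genes, the other Commander subunits, the cargo adaptor Snx17 and the WASH complex, with bars for the limma SE. Filled points passed adjusted p 0.05 in the fit across all genes and open points did not (for COMMD genes a description only); Ccdc93 and Vps35l lie farthest to the left at -1.31 and -1.22, and Commd5 and Washc4 lie to the right at 0.56 and 0.66.

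Snx17, the adaptor that hands cargo to Retriever, was at 41.7, 41.7 and 41.4 TPM in ESCs and at 23.6, 27.3 and 26.1 TPM in EpiLCs. It fell by 0.68 on the log2 scale (SE 0.07, limma adjusted p = 6.6e-05). Its relative Snx31 was below the filter, at 0.340 ± 0.117 TPM in ESCs and 1.51 ± 0.194 TPM in EpiLCs, and was not tested. Of the 5 WASH complex genes, 2 fell, 1 rose and 2 did not pass, with a median log2 difference of -0.17. Across all tested genes, 30.9% were called lower and 36.1% higher. Washc1, which carries the activity that promotes actin nucleation, fell from 31.9 ± 2.31 to 22.3 ± 0.388 TPM (limma adjusted p = 4.5e-04). Washc4 was at 24.4, 23.6 and 29.0 TPM in ESCs and rose to 37.1, 41.8 and 44.4 TPM in EpiLCs (log2 difference 0.66, SE 0.10, limma adjusted p = 6.0e-04). Washc3 (limma adjusted p = 0.085) and Washc5 (limma adjusted p = 0.524) did not pass. Washc2, whose protein recruits the CCC assembly to WASH, fell by 0.20 (limma adjusted p = 0.023), a call lost without ESC replicate 2 or 3 or EpiLC replicate 2 or 3 (adjusted p from 0.055 to 0.070, and 0.0048 to 0.070 over all alternatives).

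Retromer is the recycling route that runs beside Commander. Among 10 retromer and associated sorting nexin genes, 5 fell, 2 rose and 3 did not pass, with a median log2 difference of -0.22. The shares over all tested genes were 30.9% called lower and 36.1% higher. The scaffold gene Vps35 fell from 189.5 ± 10.4 to 127.7 ± 9.54 TPM (log2 difference -0.57, limma adjusted p = 1.6e-04). Snx1 fell by 0.99 and Snx6 by 0.61 on the log2 scale, whereas Snx5 rose from 164 ± 6.06 to 267 ± 3.53 TPM (log2 difference 0.70, limma adjusted p = 6.2e-06). Sorting nexins of this class work as pairs, and the genes of these pairs did not all move in 1 direction.

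Of 7 genes for membrane proteins that need Commander subunits for recycling, 4 rose, 2 fell and Lrp1 did not pass, beside 36.1% and 30.9% of all tested genes. Their median log2 difference was 0.35, and 1 of the 4 calls, that of Atp7b, was not kept under most alternatives. App, which encodes the amyloid precursor protein, rose by 1.20 and Notch2 by 0.92. Itgb1 and Atp7b are also named, chosen after their values were seen. Itga5, the integrin alpha 5 gene, fell from 54.3 ± 12.6 to 18.8 ± 1.83 TPM (limma adjusted p = 8.4e-05), while its partner Itgb1 rose from 134 ± 2.44 to 175 ± 21.7 TPM (limma adjusted p = 0.0043). The copper transporter gene Atp7a, whose protein COMMD1 helps to traffic, fell from 11.9 ± 1.12 to 8.02 ± 0.390 TPM (limma adjusted p = 0.0018). The related Atp7b, at 1.45 ± 0.175 and 2.13 ± 0.256 TPM, was called higher (limma adjusted p = 0.038), a call held in 6 of 14 alternatives (adjusted p from 0.013 to 0.119). It was lost without ESC replicate 1 or 3, without any single EpiLC library (adjusted p from 0.052 to 0.119 over these), with no filter, and under median-of-ratios or quantile scaling.

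Neighbouring genes gave a local comparison. GENCODE M21 (GRCm38) gave the nearest protein-coding gene on either side of each member, 20 genes in all. Of these, 16 were tested, 6 were called higher, 5 lower and 5 did not pass. Among all tested genes 66.9% were called, 36.1% higher and 30.9% lower, and nothing is read from the neighbour counts. Commd7 lies 16668 bases from Dnmt3b, the de novo DNA methyltransferase gene, which is on the opposite strand. Dnmt3b rose from 12.4, 10.9 and 11.0 TPM in ESCs to 367, 398 and 515 TPM in EpiLCs (log2 difference 5.09, SE 0.12, limma adjusted p = 1.5e-07), while Commd7 overlapped between states at a mean of 10.9 TPM in both. The gene on the other side of Commd7, Nol4l, fell by 1.36 (limma adjusted p = 2.6e-05).

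Commd10 lies between Arl14epl and Sema6a, the latter a semaphorin gene on the opposite strand with a gap of 1313 bases. Sema6a rose from 0.196 ± 0.0322 to 14.8 ± 2.24 TPM (log2 difference 3.71, limma adjusted p = 4.9e-07) and Arl14epl fell from 43.6 ± 5.00 to 12.6 ± 2.78 TPM (log2 difference -1.73, limma adjusted p = 4.0e-05), so the neighbours moved in opposite directions. Commd3 lies 786 bases before Bmi1, a Polycomb gene on the same strand. Bmi1 was at 9.56, 9.75 and 12.3 TPM in ESCs and at 12.1, 13.5 and 11.1 TPM in EpiLCs and did not pass the test (limma adjusted p = 0.166), although it did without ESC replicate 3 (log2 difference 0.31, adjusted p = 0.045, range over alternatives 0.045 to 0.391). Its groups overlapped, while those of Commd3 did not. Prr5l, the nearer neighbour of Commd9, rose by 1.21 on the log2 scale, from a low level of 0.300 ± 0.104 TPM in ESCs to 2.04 ± 0.610 TPM in EpiLCs. Ldlrad3, on the other side of Commd9, rose by 1.15, from 13.2 ± 0.867 to 30.3 ± 0.665 TPM.

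**Figure D5:**
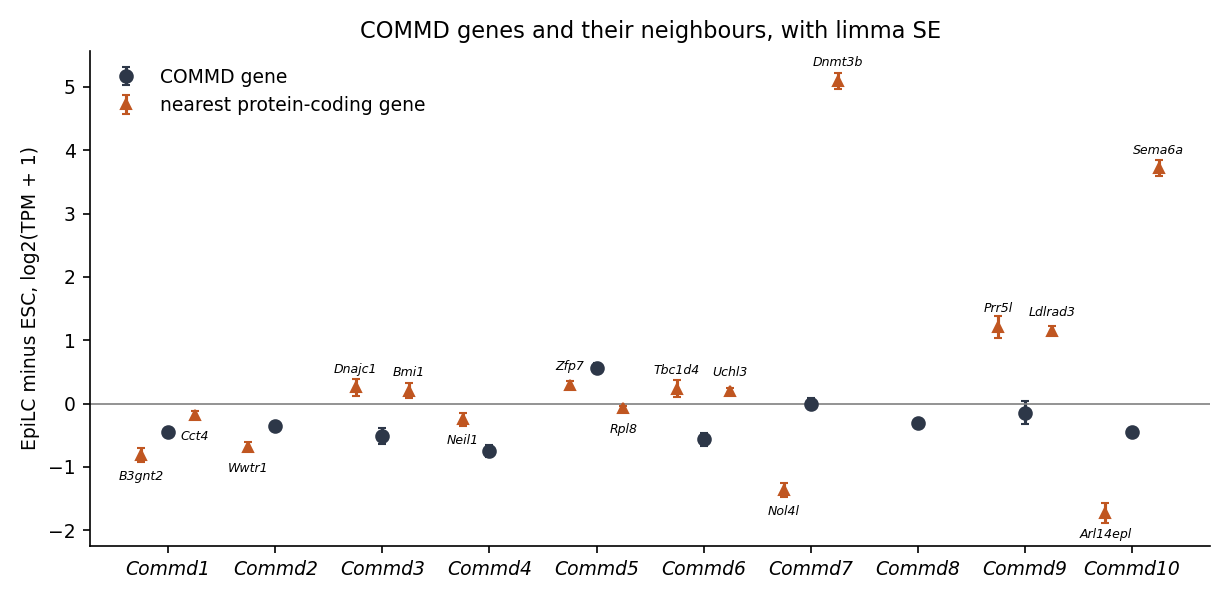
EpiLC minus ESC difference on the log2(TPM + 1) scale for each COMMD gene (circles) and its nearest protein-coding genes on either side (triangles, labelled, tested genes only), with bars for the limma SE. Dnmt3b beside Commd7 and Sema6a beside Commd10 lie at 5.09 and 3.71, while all COMMD genes lie between -0.75 and 0.56.

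The genes most like the members at either end were found by Euclidean distance over the 6 libraries between profiles of log2(TPM + 1) minus the ESC mean, among 11912 named genes. For Commd5, the nearest were Srsf6 at a distance of 0.061, Mtx1 at 0.066, Eif2b2 at 0.083, Endod1 at 0.084 and Pcmt1 at 0.098. Endod1 was at a low level, with means of 0.871 TPM in ESCs and 1.80 TPM in EpiLCs. At such levels the added 1 shrinks differences, so its likeness to Commd5 depends on that scale. For Commd4 they were Chchd5 at 0.11, Wdr62 at 0.13, Rmnd5b at 0.14, Phkg1 at 0.16 and Hsd17b8 at 0.16. Within a distance of 0.5 lay 2078 genes for Commd5 and 897 for Commd4, so these profiles were shared by many genes.

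Marker genes followed the labelled cell states. All 6 ESC markers fell, but by very different amounts, with log2 differences from -5.75 for Tbx3 to -0.22 for Pou5f1. Pou5f1 was at 1135 ± 49.1 TPM in ESCs and still at 976 ± 67.8 TPM in EpiLCs. All 4 EpiLC markers (Fgf5, Otx2, Dnmt3b and Pou3f1) rose, with a median log2 difference of 3.87. Of 19 markers of fibroblasts, primitive endoderm, trophoblast and primitive streak, 11 were under 1 TPM in every library, and 5 were tested. Thy1 rose, Gata4, Eomes and Gsc fell, and Krt7 did not pass. The fibroblast marker Postn was at 0 in all ESC libraries. The 19 markers together summed to between 25.6 and 27.1 TPM in ESC libraries and to between 20.2 and 25.2 TPM in EpiLC libraries, but the lists moved in different directions. Fibroblast and feeder markers summed to 5.70, 3.19 and 3.66 TPM in ESCs and to 13.4, 11.0 and 13.6 TPM in EpiLCs. Most of that sum was Thy1, at 3.24 ± 1.05 TPM in ESCs and 11.2 ± 1.58 TPM in EpiLCs (SD, n = 3 each). Col1a1 went the other way, from a mean of 0.918 to 0.380 TPM, and Col1a2 and Acta2 rose but stayed under 1 TPM in every library. Primitive endoderm markers summed to 5.28, 5.88 and 5.02 TPM in ESCs and to 1.32, 2.12 and 0.949 TPM in EpiLCs. Trophoblast markers overlapped, and primitive streak markers summed to 6.08, 4.58 and 6.86 TPM in ESCs and to 1.40, 1.43 and 1.41 TPM in EpiLCs. Gsc made up most of the streak sum in ESCs, at a mean of 4.69 TPM against 0.193 TPM in EpiLCs, while Mixl1 rose from 0.178 to 0.782 TPM. The part of these markers in the differences of the COMMD genes was not tested. Each library summed to 1000000 TPM, which leaves the sequencing depth unknown.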

How the data were processed

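Poly(A) RNA sequencing of 3 ESC and 3 EpiLC libraries was analysed from 1 deposited table of TPM values, made by the authors. Per the submitters' processing notes the tools were FastQC, Trim Galore, STAR and Salmon, with no version, and the build was mm39/GRCm39. The annotation release and the summing of transcripts to genes are not given in the sources used here. The 6 columns were matched to samples by name, and no label explains the tag 0uM in their names. TPM keeps no depth, so no counting interval can be given, and no count model was used.

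Values were analysed as log2(TPM + 1), for genes with a mean of at least 1 TPM over the 6 libraries, with limma 3.58.1 in R 4.3.3 (variance trend, two-sided, Benjamini-Hochberg over all 14036 genes, threshold 0.05), after tests on simulated data. The members and lists were chosen with earlier results of these data known. A gene of the cargo list is not reported here, and its list was summarised without it. The text names all members. By rule it may name any gene of a list of 5 or fewer, and of longer lists up to 4 called genes with the largest change, the largest in the minority direction and the most abundant uncalled gene. Nearest neighbours and nearest profiles are also named, from which the text gives a part.

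GENCODE M21 (GRCm38) was joined by gene identifier, for 51498 of 78298. It is not the authors' build, so only promoter windows carry coordinates. Near-identical stretches were found with BLAST+ 2.17.0 (95% identity, 100 bases). Python 3.11.15, pandas 2.3.3 and matplotlib 3.10.9 were used. Alternatives tried were a pseudocount of 0.1 or 0.5, a minimum mean of 5 TPM or none, median-of-ratios or quantile scaling, rescaling without mitochondrially encoded genes, no variance trend, a replicate block and leaving out each library.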

Additional observations from a re-analysis of the deposited data

How the results depend on the processing

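Over the 15 alternatives the count of COMMD genes on the lower side was 7 each time. It is a description only, since the same libraries served to choose the family. The median difference of the members was -0.48 with median-of-ratios scaling, against -0.40 as reported, and between -0.40 and -0.37 when 1 library was left out. That scaling moved the median of all tested genes from 0.037 to -0.035, and the log2 differences of Commd8 and Commd10 to -0.38 and -0.52. Over all genes, 5062 were called higher and 4335 lower, with 4635 to 4864 and 3846 to 4256 when 1 library was left out. No other alternative moved these counts by over 1.5 times. Same-numbered libraries of the groups had deviations correlated at 0.10, 0.14 and 0.065 across genes, and each library correlated best with its own number. No label states a pairing, and whether there was one was not tested. With the replicate block, 5135 genes were called higher and 4477 lower, 7 COMMD genes were again on the lower side, and the median of the members was -0.40. Among 67 partner, marker and nearby genes, 57 kept their call in every alternative in which they were tested, and none reversed. Of the nearest neighbours these include only Bmi1, Dnmt3b, Sema6a and Arl14epl. For the other neighbours, Nol4l, Prr5l and Ldlrad3 among them, the alternatives were not examined. Calls near the threshold, those of Washc2, Atp7b, Arpc5, Cul3 and Snx27, were lost under 1 alternative or more, those of Washc3, Lrp1, Rela, Nfkbia and Bmi1 were gained, and the cause was not tested.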

Other observations

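Further groups around Commander were also measured. Of 8 ARP2/3 genes, whose complex builds the branched actin that WASH induces on endosomes, 5 fell, 2 rose and Arpc1a did not pass. Their median log2 difference was -0.24. Over all tested genes, 30.9% were called lower and 36.1% higher. Arpc1b fell from 149.6 ± 2.13 to 67.0 ± 0.763 TPM (log2 difference -1.15, SE 0.04, limma adjusted p = 6.1e-07), while its paralog Arpc1a was at 76.7 ± 5.42 and 77.8 ± 1.74 TPM (SD, n = 3 each). Actr2 fell by 0.63 and Arpc3 by 0.44 on the log2 scale, and Arpc2 rose by 0.32. Among 11 genes for cullin, NF-kappaB and HIF partners of COMMD proteins, 5 rose, 1 fell and 5 did not pass, with a median of 0.13. The same shares of all tested genes, 36.1% higher and 30.9% lower, stand beside this count. Cul1, a cullin scaffold, was at 51.5, 55.1 and 52.0 TPM in ESCs and rose to 143, 145 and 141 TPM in EpiLCs (log2 difference 1.42, SE 0.05, limma adjusted p = 4.6e-07). Cul2 fell from 138 ± 8.95 to 107 ± 3.95 TPM (limma adjusted p = 9.7e-04), and Eloc, which encodes an elongin that works with it, rose by 0.30. Nfkb1, which encodes an NF-kappaB subunit, rose from 9.27 ± 0.472 to 14.6 ± 2.62 TPM (log2 difference 0.59, SE 0.12, limma adjusted p = 0.0035). Cand1, a regulator of cullins, averaged 116 ± 4.85 TPM in ESCs and 123 ± 8.93 TPM in EpiLCs and missed the threshold (limma adjusted p = 0.254). Rela is named although its choice followed its values. This target of COMMD1 in NF-kappaB control was at 10.7, 14.5 and 15.1 TPM in ESCs and at 10.5, 11.9 and 9.36 TPM in EpiLCs and did not pass (limma adjusted p = 0.090). It did pass without ESC replicate 1 (log2 difference -0.45, adjusted p = 0.014) and with median-of-ratios scaling (adjusted p = 0.045, range over alternatives 0.014 to 0.256).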
